A study of Mus musculus with 8 samples.

Results

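Matrix proteases cut the proteins that surround cells, and their inhibitors hold them in check. The members described here were chosen by name: every array probe whose gene symbol is Mmp9, Mmp12, Mmp13, Mmp14, Mmp19, Timp1, Timp2, Adam8, Adam17 or Plau. These 10 genes had 14 probes out of 25697 probes with 18138 gene symbols on the array. The rule itself uses no measured value, but the members were chosen with earlier results of these data known. All 14 probes were detected on at least 2 of the 8 arrays and entered the test, and 13 of them, for 9 genes, were detected on all 8 arrays.

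RNA was measured in bone marrow-derived macrophages from 8-week-old female C57BL/6J mice (WT) and from mice labelled iNOSKO. The latter carry the Nos2tm1Lau allele in every cell, on a C57BL/6 background (B6.129P2). Nos2 encodes inducible nitric oxide synthase (iNOS), which makes nitric oxide from arginine. All cells grew in GM-CSF (10 ng/ml) for 7 days and were left unstimulated or were turned into M1 macrophages over 6 h. M1 activation used LPS, a bacterial cell wall component, at 200 ng/ml and the cytokine IFN-γ at 10 ng/ml. Each of the 4 groups had 2 Illumina bead arrays. The labels do not say whether these came from separate mice or cultures, so the p-values measure only the spread between arrays. The question was how the response of these genes to M1 activation differs when iNOS is lacking.

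Matrix metalloproteinases (MMPs) are zinc enzymes that are made as inactive precursors. MMP13 is a collagenase, MMP12 an elastase typical of macrophages, MMP9 a gelatinase, and MMP14 a membrane-bound enzyme that activates other MMPs at the cell surface. TIMP1 and TIMP2 block MMPs, and TIMP2 also helps MMP14 to activate the precursor of MMP2. ADAM8 and ADAM17 are membrane-bound proteases, and ADAM17 sheds TNF and other proteins from the cell surface. Plau encodes urokinase, which turns plasminogen into plasmin.

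The genes lie apart in the mouse genome except for a neighbouring pair. In RefSeq (GRCm38.p6), Mmp13 spans chr9:7272514-7283333 and Mmp12 spans chr9:7344397-7360461. Mmp9 is at chr2:164940326-164955850, Mmp14 at chr14:54431598-54442456, Mmp19 at chr10:128790910-128800827 and Plau at chr14:20836662-20843388. Timp1 is at chrX:20870166-20874737, Timp2 at chr11:118301061-118355411, Adam8 at chr7:139978932-139995207 and Adam17 at chr12:21323509-21373632.

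RefSeq promoter sequences were at hand for 7 of the 10 members. The 250 bases before the start site were searched on both strands for the AP-1 motif TGANTCA, the IFN-γ-activated site TTCNNNGAA and the TATA motif TATAAA, no 2 of which overlapped in any member. Over all 32851 promoter windows of this length, 6.75% held the AP-1 motif, 7.02% the IFN-γ-activated site and 12.4% the TATA motif. Mmp13 held an AP-1 and a TATA match, and the second of the 2 Mmp12 start sites held an AP-1 match. No match was found in the windows of Mmp14, Timp1, Timp2, Adam8 and Adam17 or before the first Mmp12 start site. The only Adam8 window (chr7:139992563-139992812, minus strand) lies inside the gene span given above, so the bases before that span were not searched. The windows of Mmp13 and Mmp12 are shown as the neighbouring genes with a match. Those of Timp1 and Timp2 are shown as the inhibitor pair that moved in opposite directions on activation. Each is written 5′ to 3′ up to the base before the start, with motif matches in capitals. They lie at chr9:7272264-7272513 (plus strand), chr9:7347124-7347373 (plus), chrX:20869916-20870165 (plus) and chr11:118355412-118355661 (minus).
Mmp13: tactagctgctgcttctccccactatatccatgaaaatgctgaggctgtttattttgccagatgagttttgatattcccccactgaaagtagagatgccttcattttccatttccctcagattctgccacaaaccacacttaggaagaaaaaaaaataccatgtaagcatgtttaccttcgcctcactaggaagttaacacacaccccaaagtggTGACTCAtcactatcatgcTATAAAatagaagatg
Mmp12, second start site: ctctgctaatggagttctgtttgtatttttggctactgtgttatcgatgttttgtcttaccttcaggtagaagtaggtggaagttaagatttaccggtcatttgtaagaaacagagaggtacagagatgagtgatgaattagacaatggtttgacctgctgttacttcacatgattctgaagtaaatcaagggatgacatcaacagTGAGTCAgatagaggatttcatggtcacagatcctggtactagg
Timp1: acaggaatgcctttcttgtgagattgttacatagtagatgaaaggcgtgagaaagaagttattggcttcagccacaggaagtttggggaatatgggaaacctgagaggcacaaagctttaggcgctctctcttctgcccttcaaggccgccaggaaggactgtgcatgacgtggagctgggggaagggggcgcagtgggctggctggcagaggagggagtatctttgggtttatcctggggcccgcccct
Timp2: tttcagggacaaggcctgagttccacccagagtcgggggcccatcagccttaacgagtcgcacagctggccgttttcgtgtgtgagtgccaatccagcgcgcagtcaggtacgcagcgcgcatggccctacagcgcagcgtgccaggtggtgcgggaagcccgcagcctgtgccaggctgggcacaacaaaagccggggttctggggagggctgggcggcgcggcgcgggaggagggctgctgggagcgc

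Mmp13, Adam8 and Timp1 had several probes, and each probe is 50 bases long. The 3 Mmp13 probes start at positions 1262, 2332 and 2454 of its transcript and share no run of over 8 bases, so they read the transcript at separate places. The 2 Adam8 probes share 28 bases and the 2 Timp1 probes share 42, so these are near-repeats of 1 measurement. The first 30 bases of each Mmp13 probe and the stretch shared by both Adam8 probes show what was measured.
Mmp13 probe 2490131, position 1262: ccccgcctcatagaagaggaattccctgga
Mmp13 probe 2060040, position 2332: cttgtgtgacaggggctaaggcagaaatat
Mmp13 probe 5690131, position 2454: ccaccatgtttgttaatccctctctgcttt
Adam8, shared by both probes: gacaccaccagtcaagcccgggactgga

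Before the members are described, some facts of the whole series bear on them. On the arrays 46% to 49.3% of probes were detected, and the factors that put arrays on 1 scale lay between 0.801 and 1.30. Nos2 itself was not detected in either unstimulated group and rose at least 26.9-fold in WT and at least 39.4-fold in iNOSKO cells on activation. Its log2 intensity was 7.25 ± 0.29 in WT M1 and 7.60 ± 0.12 in iNOSKO M1 cells (mean ± SD, n = 2), a difference that did not pass the limma test (adjusted p = 0.397). Whether this probe lies in the deleted part is not given in the sources used here, so it did not check the genotype labels. The iNOSKO unstimulated arrays lay closer to the WT M1 arrays (distances 0.344 to 0.366, as the median absolute difference in log2 intensity) than to the WT unstimulated arrays (0.484 to 0.491). Arrays of 1 group differed by 0.161 to 0.188. Macrophage markers were detected in every group (9 of 9), with 3 higher and 4 lower in iNOSKO than in WT M1 cells. Between these groups 24.2% of all tested probes were higher and 24.3% lower. No fibroblast or stromal marker was detected on both arrays of any group (0 of 8). Summed dendritic cell markers (9 genes, scaled intensity) were 843 to 844 in WT unstimulated, 15977 to 16630 in WT M1, 13436 to 14330 in iNOSKO unstimulated and 35437 to 36965 in iNOSKO M1 cells. Flt3 was undetected on both arrays of every group, and Clec9a and Xcr1 were never detected on both arrays of a group. Ccl17 (means 544, 11133, 10010 and 19598) and Il4i1 (76.0, 4546, 3393 and 14015) made up most of the sum. Zbtb46, Ccr7 and Ccl22 had the same order of groups as the sum, and Itgax did not (193, 251, 249 and 190). Granulocyte markers (8 genes) summed to 940 to 961, 1317 to 1450, 1572 to 1660 and 3867 to 3960 in the same order, with Mpo, Prtn3 and Ctsg undetected in every group. Markers of dividing cells (10 genes) summed to 678 to 771, 2071 to 2223, 2459 to 2474 and 839.7 to 849. Osteoclast markers (5 genes) summed to 1713 to 1794, 644 to 677, 535 to 538 and 473 to 521. Calcr and Atp6v0d2 were undetected in every group. Most of that sum was Ctsk (means 1694, 614, 509 and 453), which had the same order of groups as Timp2. Acp5 (47.2, 32.1, 16.7 and 29.4) and Oscar (8.04, 9.55, 9.37 and 8.46) did not follow that order. The part of these markers in the results below was not tested. In such bulk samples fewer cells of a type and less RNA per cell cannot be told apart.

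**Figure D1:**
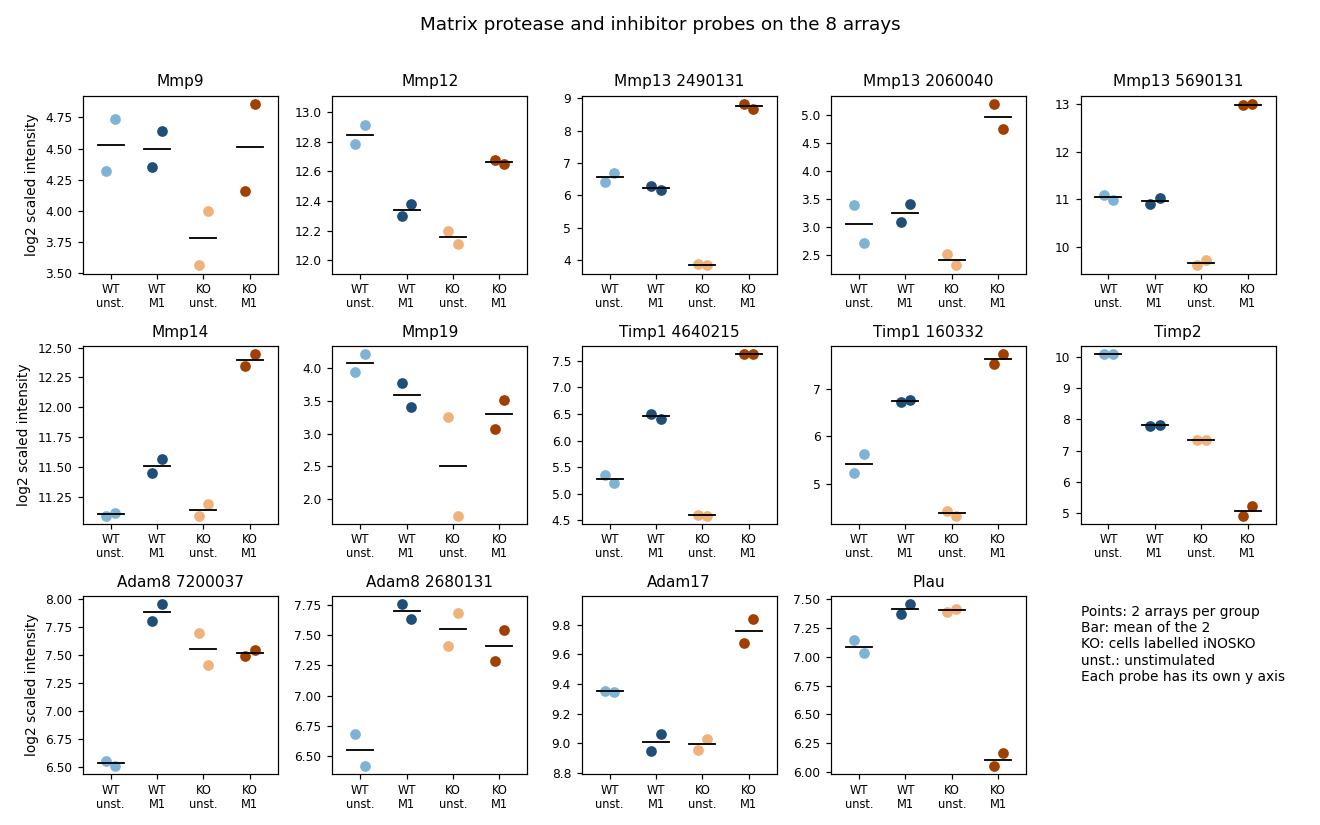
Scaled intensity (log2, y axis, a separate range for each probe) of the 14 protease and inhibitor probes in the 4 groups (x axis), with a point for each of 2 arrays and a bar at their mean. The Mmp13, Mmp14 and Timp1 probes were brightest in iNOSKO M1 cells, Timp2 and Plau were dimmest there, and Timp2 stepped down from 10.09 in WT unstimulated to 5.07 in iNOSKO M1 cells.

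Mmp13 showed the widest change among the proteases: activation raised it many-fold in iNOSKO cells, and no change passed the test in WT cells. Values are scaled intensities, comparable between arrays for 1 probe but not between probes. The probe at position 2454 read 2185 and 2038 in WT unstimulated, 1904 and 2086 in WT M1, 785 and 852 in iNOSKO unstimulated, and 7998 and 8220 in iNOSKO M1 cells. The WT groups overlapped, both iNOSKO unstimulated arrays lay below all WT arrays, and both iNOSKO M1 arrays lay above them. The probe at position 1262 read 85.5 and 103.8, 77.5 and 72.4, 14.7 and 14.3, and 458 and 408 in the same order of groups. The dim probe at position 2332 read 10.5 and 6.57, 8.47 and 10.6, 5.74 and 4.97, and 37.0 and 26.8.

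Thus all 3 Mmp13 probes placed iNOSKO M1 highest and iNOSKO unstimulated lowest. Activation of iNOSKO cells changed Mmp13 9.91-fold at position 2454 (log2 3.31 ± 0.10 SE, limma adjusted p = 2.87e-05). At positions 1262 and 2332 the change was 29.8-fold (adjusted p = 2.13e-05, limma) and 5.90-fold (adjusted p = 0.00124). The probes thus gave the same direction and different sizes. In WT cells the log2 changes were -0.08, -0.33 and 0.19 at positions 2454, 1262 and 2332, with limma adjusted p of 0.554, 0.104 and 0.640. Position 1262 passed as a fall under quantile normalization (-0.48, adjusted p = 0.0316), neqc (-0.40, limma adjusted p = 0.0116) and no scaling (-0.79, adjusted p = 0.0138), and position 2454 without scaling (-0.54, limma adjusted p = 0.0149).

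The difference between the 2 responses was 3.39 ± 0.14, 5.23 ± 0.18 and 2.37 ± 0.41 on the log2 scale for the Mmp13 probes at positions 2454, 1262 and 2332 (SE), with limma adjusted p of 0.000183, 0.000153 and 0.00790. All 3 passed under each of the 18 alternatives. Between the M1 groups iNOSKO was 4.07-fold, 5.77-fold and 3.32-fold higher in the same order (limma adjusted p = 0.000195, 0.000218 and 0.00572). Before activation it was 2.58-fold and 6.51-fold lower at positions 2454 and 1262 (limma adjusted p = 0.000632 and 0.000193). Position 2332 was 0.63 lower on the log2 scale there and did not pass (limma adjusted p = 0.157). The gene therefore began lower and ended higher in iNOSKO cells.

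Mmp12, the macrophage elastase that lies beside Mmp13, moved in opposite directions in the 2 genotypes on the scale used here. Its probe read 7044 and 7701 in WT unstimulated, 5037 and 5325 in WT M1, 4710 and 4427 in iNOSKO unstimulated, and 6549 and 6432 in iNOSKO M1 cells. No 2 groups overlapped, and WT unstimulated cells were highest. Activation lowered Mmp12 1.42-fold in WT cells (limma adjusted p = 0.0112). It raised it 1.42-fold in iNOSKO cells (limma adjusted p = 0.00688), a direction that turned under quantile normalization and neqc. Without scaling this rise was not called. The deposited intensities overlapped, at 5576 and 5525 in iNOSKO unstimulated and 5863 and 5295 in iNOSKO M1 cells. The WT fall missed the limit without WT unstimulated replicate 2 (-0.44, limma adjusted p = 0.0586) or WT M1 replicate 1 (-0.47, adjusted p = 0.0560). Unstimulated iNOSKO cells had 1.61-fold less Mmp12 than WT (limma adjusted p = 0.00446). The response differed by 1.02 ± 0.13 (SE, limma adjusted p = 0.00314). Under quantile normalization this difference was 0.39 (limma adjusted p = 0.0635). The M1 groups differed by only 1.25-fold (limma adjusted p = 0.0336), in a direction that turned under quantile normalization and neqc. This call was lost when any 1 array of WT M1 or of either iNOSKO group was left out (log2 0.29 to 0.37). It was also lost with an intercept, the replicate block or only the arrays compared.

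Mmp14, the membrane-bound activator, was highest in iNOSKO M1 cells, with no called difference between the unstimulated groups. Its readings were 2186 and 2218 in WT unstimulated, 2798 and 3043 in WT M1, 2185 and 2344 in iNOSKO unstimulated, and 5200 and 5587 in iNOSKO M1 cells. The unstimulated groups overlapped, and both iNOSKO M1 arrays lay above all others. The iNOSKO response was 2.38-fold (limma adjusted p = 0.000323). The WT response was 1.33-fold (limma adjusted p = 0.0243), turned direction without scaling, and was lost when any of the 4 WT arrays was left out (log2 0.35 to 0.47, limma adjusted p 0.0531 to 0.103). The M1 groups differed 1.85-fold (limma adjusted p = 0.00125). The difference in unstimulated cells was 0.04, with a 95% interval from -0.20 to 0.28. Responses differed by 0.85 ± 0.13 (SE, limma adjusted p = 0.00595). It fell to 0.10 under both quantile normalization and neqc (limma adjusted p = 0.555 and 0.576).

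Mmp9 and Mmp19 were dim and passed no comparison as fitted here, though some passed under alternatives. Mmp9, a gelatinase, read 20.0 and 26.7 in WT unstimulated, 20.4 and 24.9 in WT M1, 11.8 and 16.02 in iNOSKO unstimulated, and 17.9 and 29.0 in iNOSKO M1 cells. Only the iNOSKO unstimulated arrays lay below the other groups. Its iNOSKO response of 0.73 ± 0.31 (SE) had a limma adjusted p of 0.104, and passed under 5 alternatives: neqc, an intercept, detection on all 8 arrays, the replicate block, and without iNOSKO M1 replicate 1 (1.08). Their limma adjusted p ran from 0.0132 to 0.0482. The unstimulated comparison and the difference in response of Mmp9 passed under neqc (-0.45 and 0.59, limma adjusted p = 0.0376 and 0.0423) and with the replicate block (-0.75 and 0.76, limma adjusted p = 0.0214 and 0.0374). Mmp19, whose product cuts basement membrane proteins, read 15.3 and 18.5, 13.7 and 10.6, 9.54 and 3.37, and 8.38 and 11.4 in the same order. The reading of 3.37 was not above the detection limit. Without iNOSKO unstimulated replicate 1, that undetected array stood alone in its group. Mmp19 then passed the unstimulated comparison, the iNOSKO response and the difference in response (limma adjusted p = 0.0131, 0.0177 and 0.0220), with a spread taken from the other groups, and no size is given against a value that is not above background. With both arrays it passed the unstimulated comparison under neqc, an intercept and an intensity trend, the difference in response under neqc and an intercept, and the WT response under neqc (limma adjusted p from 0.00480 to 0.0469).

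The 2 inhibitors went in opposite directions on activation and between the M1 groups, while both were lower in iNOSKO cells before activation. Timp1 rose on activation in both genotypes and further in iNOSKO cells. Its first probe (4640215) read 40.9 and 36.6 in WT unstimulated, 90.3 and 85.3 in WT M1, 24.4 and 24.0 in iNOSKO unstimulated, and 198.4 and 198.3 in iNOSKO M1 cells. The second (160332) read 37.4 and 49.3, 104.8 and 108.5, 21.8 and 20.3, and 184 and 212 in the same order. No groups overlapped on either probe. Timp1 rose 2.27-fold and 2.48-fold in WT cells (limma adjusted p = 0.000776 and 0.00330). In iNOSKO cells it rose 8.19-fold and 9.40-fold (limma adjusted p = 2.93e-05 and 9.38e-05). The responses differed by 1.85 ± 0.13 and 1.92 ± 0.23 (SE, limma adjusted p = 0.000618 and 0.00245). As with Mmp13, iNOSKO cells began lower, by 1.60-fold and 2.04-fold (limma adjusted p = 0.00488 and 0.00736). In M1 cells they were 2.26-fold and 1.85-fold higher (limma adjusted p = 0.000532 and 0.00756). Every Timp1 call was kept under every alternative run for single probes.

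Timp2 fell on activation and was lower in iNOSKO cells throughout. Its probe read 1084 and 1097 in WT unstimulated, 222 and 227 in WT M1, 164 and 163 in iNOSKO unstimulated, and 30.3 and 37.4 in iNOSKO M1 cells. The groups formed 4 separate steps. Activation lowered Timp2 4.86-fold in WT (log2 -2.28 ± 0.12 SE, limma adjusted p = 0.000218) and 4.85-fold in iNOSKO cells (limma adjusted p = 0.000111). Against WT, iNOSKO cells had 6.68-fold less before activation and 6.66-fold less after it (limma adjusted p = 0.000148 and 0.000159). Responses differed by 0.003, with a 95% interval from -0.42 to 0.43 (limma adjusted p = 0.990). Under neqc it was 0.43 (limma adjusted p = 0.0270). Timp2 was the 1 member called in both responses and both genotype comparisons with the same direction in all 4.

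**Figure D2:**
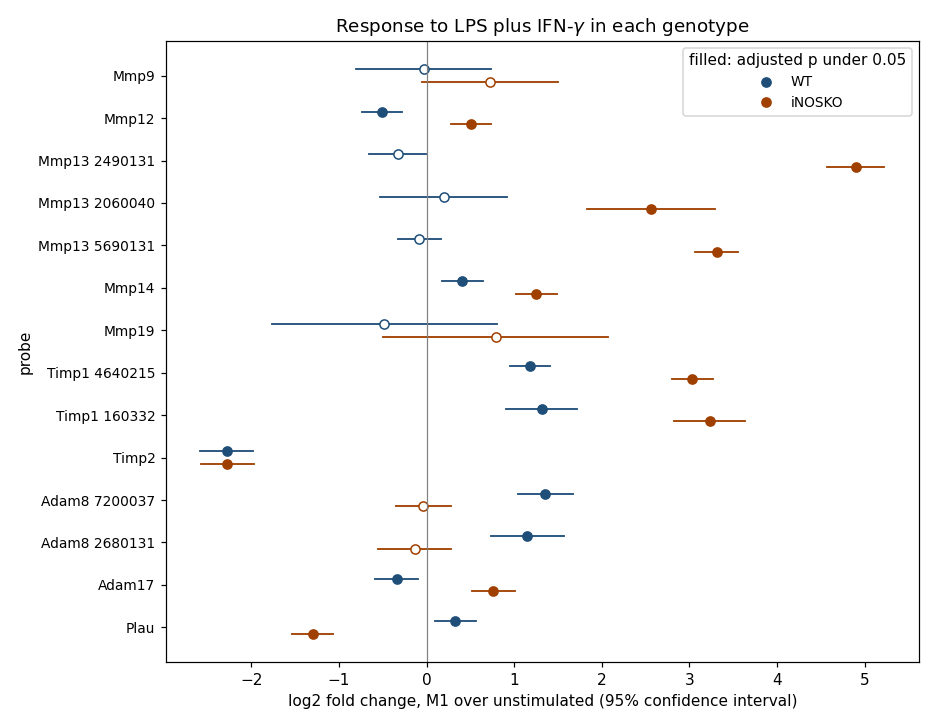
Log2 fold change of M1 over unstimulated cells (x axis) for each probe (y axis) in WT and iNOSKO cells, with 95% confidence intervals from limma and filled points for adjusted p under 0.05. The Mmp13 probes moved by 2.56 to 4.90 in iNOSKO and by -0.33 to 0.19 in WT cells, Timp2 by -2.28 in both, and Adam8 by 1.15 and 1.35 in WT cells. The Mmp12 rise in iNOSKO cells turned under quantile normalization and neqc and was not called without scaling. The Mmp14 and Plau rises in WT cells turned without scaling.

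Adam8, a membrane protease of myeloid cells, was called higher on activation in WT cells and not in iNOSKO cells. Probe 7200037 read 93.7 and 90.9 in WT unstimulated, 224 and 249 in WT M1, 208 and 171 in iNOSKO unstimulated, and 180.3 and 186 in iNOSKO M1 cells. Probe 2680131 read 102.8 and 85.4, 217 and 199, 170.0 and 206, and 156 and 187. The WT unstimulated arrays were lowest on both probes, and the iNOSKO groups overlapped. WT activation raised Adam8 2.56-fold and 2.22-fold (limma adjusted p = 0.00134 and 0.00552). In iNOSKO cells the log2 changes were -0.04 (95% interval -0.35 to 0.28) and -0.13 (-0.55 to 0.28), which did not pass. Without scaling both passed as falls, by -0.54 and -0.64 (limma adjusted p = 0.0105 and 0.0359). Unstimulated iNOSKO cells had 2.04-fold and 2.00-fold more than WT (limma adjusted p = 0.00333 and 0.00901). The responses differed by -1.39 ± 0.18 and -1.28 ± 0.23 (SE, limma adjusted p = 0.00305 and 0.00957). Between the M1 groups the changes of -0.36 and -0.28 did not pass (limma adjusted p = 0.0599 and 0.211), though the first passed under 6 alternatives (-0.35 to -0.41, limma adjusted p from 0.0174 to 0.0444). These were neqc, an intercept, detection on all 8 arrays, an intensity trend and leaving out either iNOSKO unstimulated array.

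Adam17, the main sheddase of TNF, moved modestly. Its probe read 655 and 651 in WT unstimulated, 494 and 535 in WT M1, 498 and 522 in iNOSKO unstimulated, and 817 and 915 in iNOSKO M1 cells. Both iNOSKO M1 arrays lay above all others, while WT M1 and iNOSKO unstimulated overlapped. The iNOSKO response was 1.70-fold (limma adjusted p = 0.00205), and was lost without scaling, where its log2 value fell from 0.76 to 0.26 (limma adjusted p = 0.0787). The M1 groups differed 1.68-fold (limma adjusted p = 0.00253). Responses differed by 1.11 ± 0.14 (SE, limma adjusted p = 0.00297). In WT cells activation lowered Adam17 1.27-fold (limma adjusted p = 0.0455), and unstimulated iNOSKO cells had 1.28-fold less than WT (limma adjusted p = 0.0434). Both calls were lost when any array of an unstimulated group or of WT M1 was left out. The log2 values then ran from -0.29 to -0.40 for the WT response and from -0.32 to -0.39 for the unstimulated groups. Both were also lost with an intercept, the replicate block or only the arrays compared. The unstimulated call was lost under quantile normalization, neqc and no scaling as well.

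Plau, the urokinase gene, was the only protease among the members that was called lower on activation of iNOSKO cells. It read 142 and 131 in WT unstimulated, 166 and 176 in WT M1, 167 and 171 in iNOSKO unstimulated, and 66.2 and 71.4 in iNOSKO M1 cells. The iNOSKO M1 arrays lay well below all others, and WT M1 and iNOSKO unstimulated overlapped. Activation lowered Plau 2.46-fold in iNOSKO cells (limma adjusted p = 0.000274), and the M1 groups differed by -1.31 ± 0.09 on the log2 scale (SE, limma adjusted p = 0.000406). Between genotypes the response differed by -1.63 ± 0.13 (SE, limma adjusted p = 0.000860). The WT rise of 1.25-fold (limma adjusted p = 0.0443) turned direction without scaling and was lost when any 1 of the 8 arrays was left out (log2 0.27 to 0.38). That call was also lost under quantile normalization, neqc, the replicate block and only the arrays compared. Unstimulated cells differed by 0.31 (limma adjusted p = 0.0528). This passed under 7 alternatives (lowest limma adjusted p = 0.0201). These were neqc, an intercept, no scaling, a floor of 16, no detection filter, detection on all 8 arrays and an intensity trend.

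**Figure D3:**
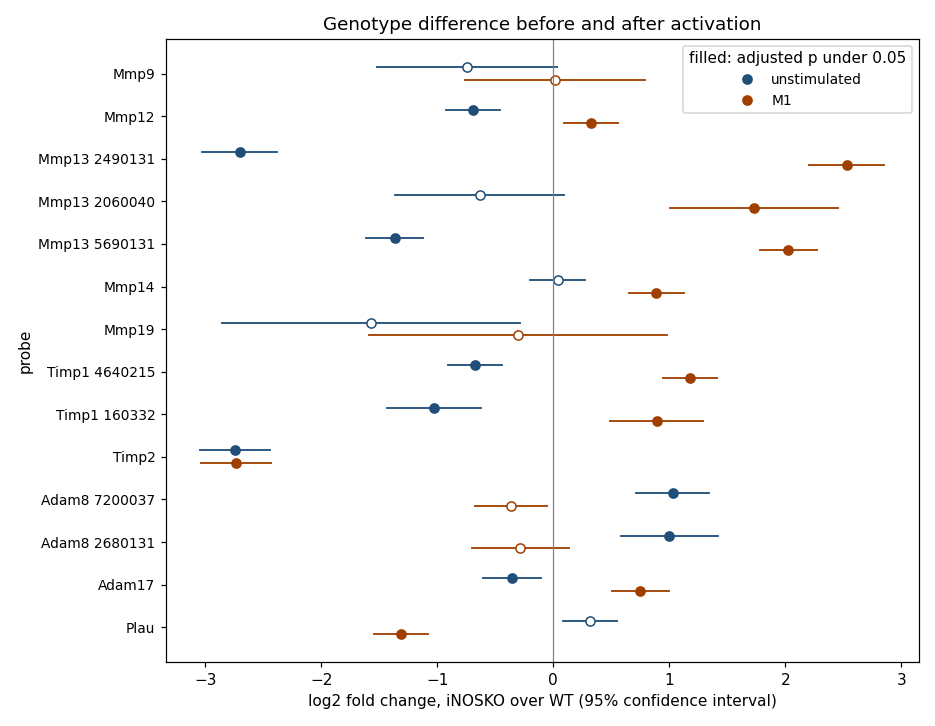
Log2 fold change of iNOSKO over WT cells (x axis) for each probe (y axis) before and after activation, with 95% confidence intervals from limma and filled points for adjusted p under 0.05. All 3 Mmp13 and both Timp1 probes lay below 0 before and above 0 after activation, and Timp2 lay at -2.74 in both. The Mmp12 difference between M1 groups turned under quantile normalization and neqc.

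Counted over the 14 probes, activation called 9 in WT cells, 6 higher and 3 lower. Of all 13868 tested probes 35.1% were called, 20.2% higher and 14.9% lower. The WT count fell to 5 without WT unstimulated replicate 2 or without WT M1 replicate 1. In iNOSKO cells 10 were called, 8 higher and 2 lower, against 50% of all probes (26.2% higher and 23.8% lower). Between the M1 groups 10 were called, 8 higher in iNOSKO and 2 lower, against 48.5% (24.2% and 24.3%). Between the unstimulated groups 9 were called, 2 higher and 7 lower, against 32.1% (15.9% and 16.2%). In the difference in response 11 were called, of which 8 were higher and 3 lower, against 41.9% (20.8% and 21.1%). The median log2 difference of the members was 0.54 between the M1 groups and -0.68 between the unstimulated groups, and that of all tested probes was 0 and -0.02. For the WT and iNOSKO responses the members' medians were 0.08 and 0.77, beside 0.07 and 0.04 over all probes. These comparisons share arrays with each other, and the 14 probes stand for 10 genes, which were chosen with earlier results of these data known. The calls in the difference in response fell on Mmp12, Mmp13, Mmp14, Timp1 and Adam17 (higher) and on Adam8 and Plau (lower).

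**Figure D4:**
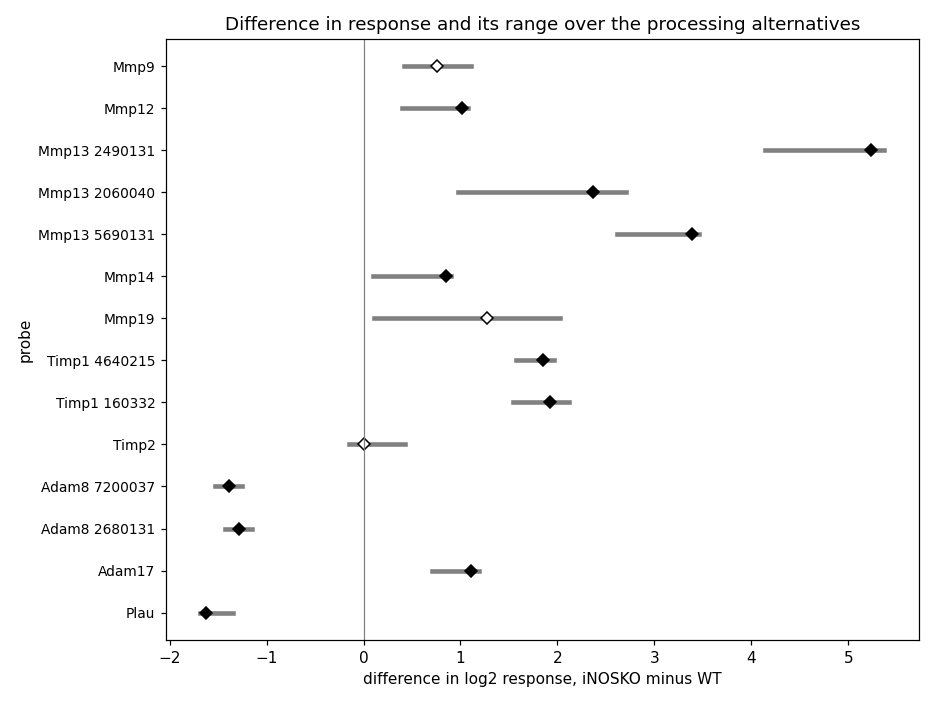
Difference in log2 response, iNOSKO minus WT (x axis), for each probe (y axis). Diamonds give the value as reported, filled for adjusted p under 0.05, and grey bars run from the lowest to the highest value over 18 alternatives (17 for Mmp19). The range of Timp2 includes 0, while Mmp14 reached down to 0.10 and Mmp12 to 0.39.

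Other genes of the same pathways were drawn from lists. Each gene is given by 1 probe, and genes are named by size among those that passed. Of all tested probes, the difference in response called 20.8% higher and 21.1% lower, and the comparison of M1 groups 24.2% and 24.3%. Of 18 other MMPs, 17 were on the array and 6 were tested. The difference in response called 2 of them higher (Mmp1a and Mmp8) and 1 lower (Mmp23). Mmp1a, an interstitial collagenase, was 2.10-fold higher in iNOSKO than in WT M1 cells (limma adjusted p = 0.0199). The neutrophil collagenase gene Mmp8 had log2 intensities of 7.53 ± 0.04, 5.78 ± 0.18, 6.17 ± 0.40 and 6.20 ± 0.06 in WT unstimulated, WT M1, iNOSKO unstimulated and iNOSKO M1 cells (SD, n = 2). Mmp23 was not detected in WT unstimulated cells and was 1.75-fold lower in iNOSKO than in WT M1 cells (limma adjusted p = 0.0345), a call that was lost under quantile normalization (limma adjusted p = 0.0701), with an intercept and without scaling.

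Among 4 other inhibitors, 3 were on the array and only Timp3 was tested. Timp3, a matrix-bound inhibitor that also blocks ADAM17, was undetected in WT unstimulated cells and was 2.93-fold higher in iNOSKO than in WT M1 cells (limma adjusted p = 0.000873). Of 19 other ADAM and ADAMTS genes, 14 were on the array and 6 were tested. The difference in response called 1 higher (Adam9, 1.34 ± 0.22 SE, limma adjusted p = 0.00737) and 2 lower (Adam15 and Adam23). Adam15 was 2.20-fold lower in iNOSKO than in WT M1 cells (limma adjusted p = 0.000702). Adam23 was undetected in WT unstimulated cells and had log2 intensities of 9.14 ± 0.10 in WT M1, 9.96 ± 0.06 in iNOSKO unstimulated and 7.80 ± 0.10 in iNOSKO M1 cells (SD, n = 2).

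The plasminogen system had 10 listed genes, with 9 on the array and 5 tested. Plaur, the receptor that holds urokinase at the cell surface, went opposite to Plau. It was 1.51-fold higher in iNOSKO than in WT M1 cells (limma adjusted p = 0.00271), and its response differed by 1.16 ± 0.11 (SE, limma adjusted p = 0.00143). Serpinb2, an inhibitor of urokinase, was 3.51-fold higher in iNOSKO M1 cells (limma adjusted p = 0.000736). Serpinb6a and Lrp1, the latter a clearance receptor for protease-inhibitor complexes, were 1.41-fold and 1.55-fold lower there (limma adjusted p = 0.00701 and 0.00764). The difference in response called 3 of the 5 higher (Plaur, Serpinb2 and Serpinb6a), beside 20.8% of all tested probes. The Serpinb2 difference of 1.12 missed the limit under quantile normalization (0.66, limma adjusted p = 0.0659).

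Of 7 listed regulators of ADAM17 and activators of protease precursors, 5 were tested. The difference in response called 3 of them higher, beside 20.8% of all tested probes. Furin, which cuts the precursors of MMP14 and ADAM17, was 1.67-fold higher in iNOSKO than in WT M1 cells (limma adjusted p = 0.00142). Under quantile normalization and neqc its log2 difference of 0.74 became 0.20 (limma adjusted p = 0.0841 and 0.0855). The related convertase gene Pcsk7 was 1.23-fold higher (limma adjusted p = 0.0312) and missed the limit under all 4 other scalings. Its difference in response, 0.52, missed the limit under quantile normalization, neqc and no scaling (limma adjusted p = 0.0542, 0.0543 and 0.0790), which leaves 2 of the 3 calls there. Rhbdf1, which encodes a partner of ADAM17, was detected on both arrays of WT unstimulated cells and on 1 of iNOSKO M1 cells only, so no fold is given.

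Of 15 listed proteins shed by ADAM17, 13 genes were tested. Between the M1 groups 6 were higher in iNOSKO and 2 lower, beside 24.2% and 24.3% of all tested probes. Among the 6, Axl turned direction under quantile normalization and neqc. Cx3cl1, a chemokine that is released by shedding, was 5.34-fold higher, Tnf 2.16-fold and the adhesion molecule gene Icam1 2.09-fold (limma adjusted p = 0.000545, 0.00161 and 0.000468). Csf1r, the receptor for M-CSF, was 2.39-fold lower (limma adjusted p = 0.00102). Il6ra was also called lower, but it was detected on only 1 of the 2 iNOSKO M1 arrays. The difference in response called 3 higher, namely the efferocytosis receptor gene Mertk (2.50 ± 0.14), the TNF receptor gene Tnfrsf1b (1.73 ± 0.17) and the growth factor gene Hbegf (1.52 ± 0.18, all SE, limma adjusted p = 0.000390, 0.00147 and 0.00257). It called 1 lower, Csf1r (-0.85 ± 0.18 SE, limma adjusted p = 0.0144). These are transcript levels, and shedding itself was not measured.

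For the 3 member probes whose group means spanned the widest range, the genes with the most alike pattern were sought among 9674 probes detected on all 8 arrays. The likeness was Pearson's r of log2 intensity over the 8 arrays, which fall into 4 groups of 2. Timp2, with a span of 5.02, was most like LOC100048845 (r = 0.999) and Arhgap24 (r = 0.998), and 394 probes had r above 0.95. The Mmp13 probe at position 1262 was most like Plaur and Ppap2b (r = 0.996 for both), and 136 probes had r above 0.95. The Mmp13 probe at position 2454 was most like Coq10b and Slc15a3 (r = 0.998 for both), and 280 probes had r above 0.95.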

How the data were processed

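RNA of 4 groups was measured on 8 Illumina arrays, all of which were used and grouped by their labels. The labels and the methods name different array types (MouseRef-8 and MouseWG-8). The authors deposited the intensity of each probe, averaged over beads and not normalized between arrays, and a detection p-value (the share of negative control probes at least as bright). The file headers name GSGX Version 1.9.0, with no normalization and no background subtraction. Undetected probes nevertheless lay around 0 (25.2% to 27.2% of probes were below 0), and no background was subtracted further. The submitters' processing notes name GenomeStudio and limma 3.14.4. The methods state background subtraction, rank-invariant normalization, 1 in place of negative values, log2 and limma.

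For this report, arrays were brought to a common scale, the mean array, with a factor per array. The factor was the slope of a robust fit without intercept (rlm of MASS 7.3.60.0.1) over probes of stable rank, those that moved by less than 0.05 of their rank in the mean array and lay between 0.5 and 0.9 of all ranks. A floor of 1 was then set and log2 taken. The 13868 probes detected (p-value under 0.05) on 2 or more arrays entered a one-way limma 3.58.1 model of all 8 arrays (R 4.3.3), with Benjamini-Hochberg adjustment over all of them and calls at adjusted p under 0.05. Intervals are 95% intervals of that fit. The number of arrays, 2 per group, limits the precision. The Nos2 bound sets the M1 mean against the lowest detected signal or the probe's own, whichever was higher.

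Every member probe is named. Genes of other lists are named where they passed in the difference in response or between the M1 groups, at most 3 each way by size. The members and lists were chosen with earlier results of these data known. The alternatives were quantile normalization, neqc, a line with an intercept, no scaling, a floor of 16, only values of 0 or less set to 1, no detection filter, detection on all 8 arrays, an intensity trend, only the arrays compared, a 2-fold minimum, the replicate number as a block and each array left out. Same-numbered arrays did not deviate together (correlations from -0.04 to 0.03). The procedure was run on simulated data. There far fewer probes differed between the M1 groups than were called here, so that run cannot judge the scaling. The other scalings were run for the wider lists, and iNOSKO unstimulated was set against WT M1 cells, after seeing the data.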

Additional observations from a re-analysis of the deposited data

Results flagged for a closer look

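The change on activation differed between the genotypes, by the interaction term of the limma model, for 11 of the 14 probes. The differences in log2 response, iNOSKO minus WT, were 5.23, 2.37 and 3.39 for the Mmp13 probes 2490131, 2060040 and 5690131. They were 1.85 and 1.92 for the Timp1 probes 4640215 and 160332, 1.02 for Mmp12, 0.85 for Mmp14 and 1.11 for Adam17. Adam8 gave -1.39 and -1.28 for probes 7200037 and 2680131, and Plau gave -1.63. Of all tested probes 41.9% differed by the same test.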

How the results depend on the processing

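Of 1311 recomputed values of single probes, 1213 kept their side of the limit, 54 lost the call, 38 gained one and 6 changed sign where a call was involved. Of the 1213, 19 uncalled values took the opposite sign and 3 came to 0 at the floor of 16, which leaves 1191 with the same direction. The 6 were Mmp12 in the iNOSKO response (-0.20 under both quantile normalization and neqc) and between the M1 groups (-0.18 under both), and, without scaling, Mmp14 (-0.056) and Plau (-0.14) in the WT response. With a 2-fold minimum, 5 of 9 member probes remained past the limit in the WT response, 6 of 10 between the M1 groups and 5 of 9 between the unstimulated groups. With 1 array left out, the WT response called 5 to 8 member probes. The cause was not tested. The replicate number as a block (replicate block) gave 7, 11, 9, 9 and 12 called member probes for the WT response, the iNOSKO response, the M1 groups, the unstimulated groups and the difference in response. Without scaling, the median of all tested probes moved to -0.38 in the WT and -0.45 in the iNOSKO response, and the share of calls that were higher fell from 57.6% to 22.5% and from 52.4% to 25.7%. Under quantile normalization these shares were 47.4% and 41.9%, and under neqc 44.4% and 43.3%. Detection on all 8 arrays left Mmp19 without a value. Mmp9, Mmp19 and the Mmp13 probe at position 2332 had the lowest signals over background, with the widest intervals.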

Other observations

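The unstimulated iNOSKO cells were also set against both WT groups, an added description without a test in which genotype and activation both differ. By mean log2 intensity 10 of the 14 probes lay nearer to WT M1 than to WT unstimulated cells, a share of 71.4% beside 58.9% of all 13868 tested probes. Adam17 and Plau differed from WT M1 by 0.01 each, and the Adam8 probes by 0.33 and 0.15. Mmp12 lay 0.18 and Timp2 0.46 from WT M1, compared with 0.69 and 2.74 from WT unstimulated cells. The other probes counted as nearer to WT M1 lay below both WT groups. The Mmp13 probes at positions 1262 and 2454 lay 2.37 and 1.29 from WT M1, compared with 2.70 and 1.37 from WT unstimulated cells. For Mmp9 these distances were 0.71 and 0.75, and for Mmp19 they were 1.09 and 1.57. Both Timp1 probes lay farther from WT M1, by 1.86 and 2.34, than from WT unstimulated cells, by 0.68 and 1.03.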
